A study of Mus musculus with 8 samples.

Results

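The interferon regulatory factors (IRFs) are a family of transcription factors, and the genes Irf1, Irf2, Irf3, Irf4, Irf5, Irf7, Irf8 and Irf9 were followed here by their symbols in the deposited gene table. Of these 8 genes, 7 were among the 18768 genes of the table and all 7 were abundant enough to be tested. Irf4, the factor of plasma cells and of some T cells and dendritic cells, had no row and was not analysed here. The lowest count of any row, summed over all libraries, was 20.

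RNA was sequenced from 4 mouse fibrosarcoma cell lines with 2 libraries each. MC010 and MC011 carry the label KO and were grown from tumors of mice with the Irf8 gene knocked out, and MC654 and MC659 carry the label WT and were grown from tumors of wild-type C57BL/6 mice. All of these mice had received 100 µg of methylcholanthrene, a chemical carcinogen, under the skin in 100 µl of peanut oil, the tumors were taken about 3 months later, and the cells had gone through 10 or more passages with no further treatment named for the RNA samples. The age of the mice is not given in the sources used here. The gene was knocked out in the animal and not in the cultured cells. Each label is held by 2 lines only, so what belongs to a line and what to its label cannot be told apart further, and nothing says that the 2 libraries of a line came from separate cultures. By label, the p-values measure the spread among the libraries of 2 lines, counted as if these libraries were independent. Between single lines, they measure only the spread between libraries of a line, which may be technical.

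Each IRF binds DNA through an amino-terminal domain that reads GAAA repeats, as found in the interferon-stimulated response element (ISRE). IRF3 and IRF7 are phosphorylated downstream of nucleic acid sensors and switch on the type I interferon genes, and IRF9 works with STAT2 in a complex that acts downstream of the interferon receptor. IRF1 is induced by interferon gamma through a gamma-activated site (GAS), IRF2 competes for many of the sites that IRF1 uses, and IRF8 acts mainly in myeloid and B cells.

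The promoter sequences were read from RefSeq tables of build GRCm38.p6, in windows of 250 bases before and 50 after each annotated start, because the family holds both readers of the ISRE and targets of interferon signalling. All 8 genes matched. An ISRE was searched on both strands as GAAA, then NN (any pair of bases), then GAAA, and a GAS as TTC, then NNN, then GAA, which reads alike on both strands. The first was found in 3.44% of all 32851 windows and the second in 8.30%. Counted per gene, with a match in any window, the shares were 3.99% and 9.55% of 27025 genes. Irf1, Irf8 and Irf9 had 2 windows each, and the matches of Irf1 and Irf8 lay in the more upstream window. The stretches of the members with a match are shown 5′ to 3′ on the plus strand, with every match in capitals, at chr11:53769884-53769972 for Irf1, chr8:46739495-46739569 for Irf2 and chr8:120736147-120736253 for Irf8.
Irf1: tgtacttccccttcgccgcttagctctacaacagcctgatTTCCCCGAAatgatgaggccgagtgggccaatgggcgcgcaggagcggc
Irf2: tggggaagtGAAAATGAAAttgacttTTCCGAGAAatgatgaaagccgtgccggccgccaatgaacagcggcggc
Irf8: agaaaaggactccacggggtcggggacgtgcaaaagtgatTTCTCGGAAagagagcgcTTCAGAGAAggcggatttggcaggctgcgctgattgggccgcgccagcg

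The Irf1 stretch held 1 GAS, which began 90 bases before the start. The Irf2 stretch held an ISRE 241 bases before the start and a GAS 224 bases before it. The Irf8 stretch held 2 GAS matches, 171 and 153 bases before the start. The windows of Irf3, Irf4, Irf5, Irf7 and Irf9 held neither set of letters, which says nothing about sites elsewhere or about other spellings. A match is a description of the sequence, and binding was not measured.

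Library totals were 74063616 to 116206078 counts over the genes of the table. Levels are counts scaled to a common library size (CPM), with library sizes adjusted by the trimmed mean of M-values (TMM). A gene was called when its log2 fold change exceeded 0.59 in either direction and its adjusted p was below 0.05. With the KO-labelled libraries set against the WT-labelled ones, 6 of the 7 members were called, 1 higher and 5 lower, where 22.5% of the 15153 genes tested were called, 13.7% higher and 8.72% lower. In those 6 members the 4 KO-labelled libraries lay wholly above or wholly below the 4 WT-labelled libraries, as in 42.5% of all genes tested, of which 20.5% had the KO-labelled libraries lower and 22.1% had them higher. With the counts of each line added up, 2 lines against 2, edgeR called 0 members and no other gene, and 6 members had an unadjusted p under 0.05. The median log2 fold change was -0.76 over the 7 members and 0.02 over all genes.

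Irf8 (ENSMUSG00000041515, mm10 chr8:120736358-120756694, plus strand) is the gene named as knocked out, and its RNA went against the labels. MC010 gave 442 and 347 Irf8 counts and MC011 gave 32 and 10. In MC654 it had 1 and 2 counts, and in MC659 it had 1 and 0. Every KO-labelled library was therefore above every WT-labelled library, and MC010 was far above MC011. The pooled level in MC010 was 364 times that of the WT-labelled libraries, with an exact 95% interval of 142 to 1339, and the pooled level in MC011 was 20.7 times it, with an interval of 7.53 to 79.7. MC010 exceeded MC011 17.5-fold, with an interval of 12.9 to 24.5. These intervals cover counting error only and not the spread between libraries.

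The fitted log2 fold change of Irf8 was 7.44 (SE 1.49), with an adjusted p-value of 0.00570 from edgeR's quasi-likelihood test, and it rests on 4 counts over the WT-labelled libraries. The call was lost when limma-voom treated lines as random blocks (log2 fold change 6.17, adjusted p = 0.153). It was also lost in edgeR without MC654 (8.33, adjusted p = 0.0750) and in edgeR without MC659 (6.87, adjusted p = 0.0897). The direction stayed the same in each of these fits. Without MC010 the log2 fold change was smaller, 4.14, and was still called (adjusted p = 0.00151, edgeR). Counts per gene do not show from which exons the reads came, so they cannot tell an intact Irf8 transcript from one made by a disrupted allele. The study typed genomic DNA of the 4 lines by PCR with primers for the wild-type and the mutant Irf8 allele, which gave the lines the genotypes of their labels, and those data were not analysed here. All directions below are by label, with Irf8 RNA at odds with it.

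The sensor-activated factors Irf3 and Irf7 were both lower in the KO-labelled libraries, Irf7 by far the more. Irf7 (ENSMUSG00000025498, chr7:141262706-141266481, minus strand), which interferon itself induces, had 3.51 and 3.12 CPM in MC010, 0.954 and 1.58 in MC011, 23.8 and 22.7 in MC654, and 41.6 and 46.3 in MC659. The 4 lines did not overlap and stood in the order MC011, MC010, MC654, MC659. The mean was 2.29 CPM (SD 1.22, n = 4) under the KO label and 33.6 CPM (SD 12.1, n = 4) under the WT label, and Irf7 fell by 3.87 on the log2 scale (SE 0.48, adjusted p = 0.000608, edgeR).

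Irf3 (ENSMUSG00000003184, chr7:44997648-45002848, plus strand), which cells make without induction, had 33.5 and 32.0 CPM in MC010, 33.3 and 34.0 in MC011, 62.2 and 53.9 in MC654, and 53.8 and 55.9 in MC659. The KO-labelled lines overlapped with each other, the WT-labelled lines overlapped with each other, and the labels were apart. Irf3 fell by 0.76 on the log2 scale (SE 0.06, adjusted p = 9.66e-05, edgeR), from 56.4 CPM (SD 3.97, n = 4) to 33.2 CPM (SD 0.854, n = 4).

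Irf5 (ENSMUSG00000029771, chr6:29526625-29541871, plus strand), a factor that acts downstream of Toll-like receptors and MyD88, had 2.501 and 2.95 CPM in MC010, 2.67 and 3.30 in MC011, 21.2 and 23.3 in MC654, and 21.3 and 21.8 in MC659. It took a low level in both KO-labelled lines and a high one in both WT-labelled lines, with the lines of a label overlapping. Irf5 fell by 2.94 on the log2 scale (SE 0.12, adjusted p = 3.06e-06, edgeR), from 21.9 CPM (SD 0.973, n = 4) to 2.86 CPM (SD 0.352, n = 4).

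Irf9 (ENSMUSG00000002325, chr14:55603571-55610030, plus strand), the DNA-binding subunit of a complex with STAT2, had 14.0 and 13.3 CPM in MC010, 19.9 and 20.8 in MC011, 38.4 and 36.6 in MC654, and 49.6 and 50.8 in MC659. No line overlapped with another, and MC010 was the lowest. Irf9 fell by 1.37 on the log2 scale (SE 0.19, adjusted p = 0.00102, edgeR), from 43.8 CPM (SD 7.39, n = 4) to 17.0 CPM (SD 3.90, n = 4).

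Irf1 (ENSMUSG00000018899, chr11:53770014-53778374, plus strand), the activator whose GAS is shown above, had 52.4 and 49.9 CPM in MC010, 51.4 and 53.4 in MC011, 79.6 and 75.1 in MC654, and 95.8 and 95.9 in MC659. The KO-labelled lines overlapped, and MC659 was above MC654. Irf1 fell by 0.74 on the log2 scale (SE 0.09, adjusted p = 0.000568, edgeR), from 86.6 CPM (SD 10.8, n = 4) to 51.8 CPM (SD 1.49, n = 4). Without MC659 its log2 fold change was -0.59, just short of the fold threshold.

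Irf2 (ENSMUSG00000031627, chr8:46739732-46847458, plus strand), the antagonist of IRF1 at shared sites, was the member that was not called. It had 38.8 and 36.5 CPM in MC010, 29.5 and 30.5 in MC011, 27.2 and 24.7 in MC654, and 30.6 and 31.7 in MC659. The lines stood apart in the order MC654, MC011, MC659, MC010, so that MC011 lay between the WT-labelled lines and MC010 above them. The log2 fold change was 0.24 (SE 0.12, adjusted p = 0.148, edgeR), with means of 33.8 CPM (SD 4.51, n = 4) under the KO label and 28.6 CPM (SD 3.21, n = 4) under the WT label.

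**Figure D1:**
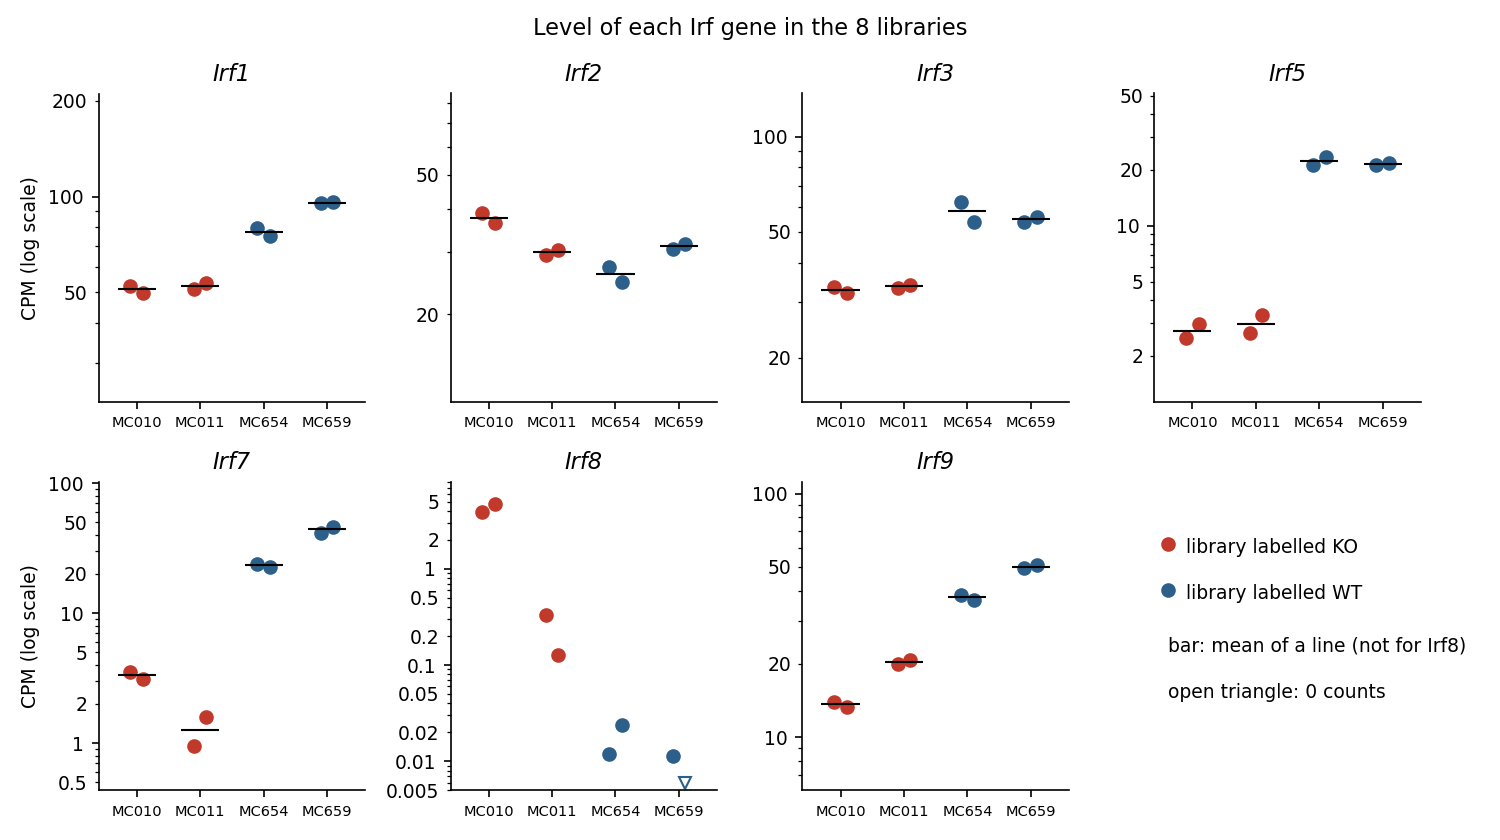
CPM on a log axis, with its own range in each panel, for the 7 Irf genes in each library (points) of the 4 lines, red for the KO label and blue for WT, with black bars for the mean of a line except for Irf8, where an open triangle marks 0 counts. Irf5 sits at 2.501 to 3.30 CPM in the red libraries and at 21.2 to 23.3 CPM in the blue ones, while Irf8 runs the other way and Irf2 overlaps.

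A fit with 1 group per line gave the differences between lines, in which each KO-labelled line was set against each WT-labelled line. These 4 comparisons share lines and are given side by side. Irf7 was lower by label in each, and its log2 differences were -2.80 for MC010 against MC654, -3.72 for MC010 against MC659, -4.23 for MC011 against MC654 and -5.14 for MC011 against MC659. Irf5 stayed between -3.04 and -2.86 and Irf3 between -0.82 and -0.71. Irf9 ran from -1.88 to -0.88. Irf3, Irf5, Irf7 and Irf9 were called lower in all 4, and Irf8 was called higher in all 4. Irf1 was called lower in 3 and had -0.56 for MC011 against MC654, and Irf2 was called in none, with -0.06 to 0.54. Of all genes, 15.4%, 16.9%, 11.9% and 13.2% were called lower in these comparisons, in the order given for Irf7, and 20.3%, 19.8%, 18.0% and 17.3% were called higher.

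Lines of the same label also differed. Between the KO-labelled lines, 2 of 7 members were called, both higher in MC010, where 32.6% of 16703 genes were called and 16.3% were called higher. Irf7 was higher in MC010 than in MC011 by a log2 difference of 1.43 (SE 0.17, adjusted p = 1.19e-06, edgeR), and Irf8 by 4.18 (SE 0.35, adjusted p = 1.83e-08, edgeR). Irf2 had 0.33 and Irf9 had -0.57, both under the adjusted p threshold but short of the fold threshold. Irf1, Irf3 and Irf5 passed neither threshold, with -0.03, -0.03 and -0.13.

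Between the WT-labelled lines, 1 of 7 members was called, lower in MC654, where 4.58% of all genes were called and 3.42% were called lower. Irf7 was lower in MC654 than in MC659, with a log2 difference of -0.92 (SE 0.10, adjusted p = 1.05e-05, edgeR). Irf1 had -0.31, Irf2 had -0.26 and Irf9 had -0.42, which passed the adjusted p threshold only. Irf3 had 0.08 and Irf5 had 0.05, and Irf8 was at 2 counts or fewer in every library of both lines, so no fold is given. Irf7 was the member called within both labels.

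**Figure D2:**
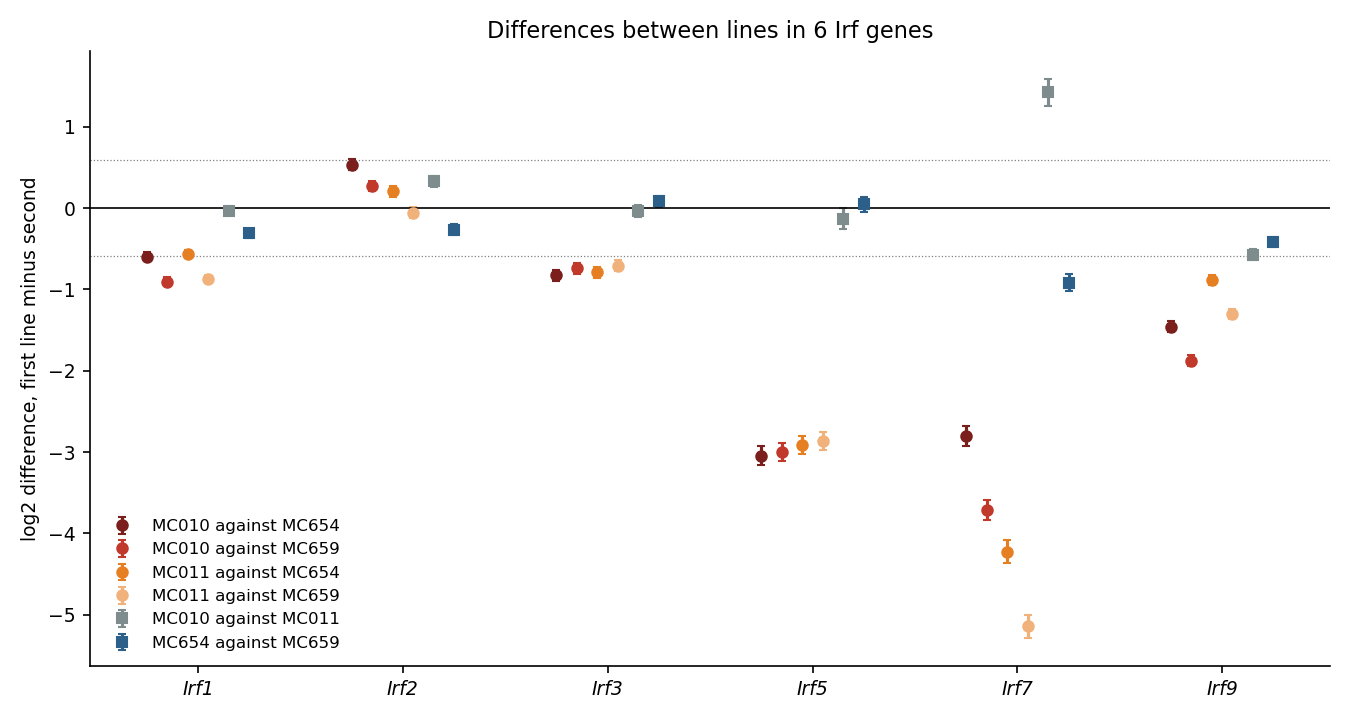
The log2 difference (vertical axis) with its standard error (bars) for 6 Irf genes, with circles for a KO-labelled line minus a WT-labelled line, squares for lines of the same label, and dotted lines at the fold threshold of 0.59. The circles of Irf5 lie together between -3.04 and -2.86, while those of Irf7 spread from -5.14 to -2.80, and Irf8 is left out because its counts in the WT-labelled lines were 0 to 2.

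Levels of different members can be compared only per length, for which CPM was divided by the length of the longest coding transcript in kilobases (CPM per kb). In all 4 lines Irf1 was the highest and Irf3 the next, with Irf1 at 23.9 CPM per kb in MC010, 24.5 in MC011, 36.2 in MC654 and 44.8 in MC659. Irf2 followed in MC010 and MC011 with 15.1 and 12.02 CPM per kb. In MC654 the third was Irf9 with 12.7, and in MC659 it was Irf7 with 19.6. The ranges of the 2 libraries overlapped between neighbours in this order only for Irf8 and Irf7 in MC010, and for Irf7, Irf2 and Irf5 in MC654, which had 10.4, 10.4 and 9.94 CPM per kb.

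Irf8 was last in MC011, MC654 and MC659. In MC010 it had 1.51 CPM per kb, beside 1.48 for Irf7 and 1.22 for Irf5. The lower ranks depend on the length used. With the merged length of all annotated exons, a choice made after the data were seen, Irf8 moved from rank 5 to rank 7 in MC010, Irf5 moved from rank 6 to rank 3 in MC654, and Irf2 and Irf5 changed places in MC659, while Irf1 and Irf3 kept the first ranks in every line.

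Summed over the 7 members, the family had 63.9 CPM per kb in MC010, 62.0 in MC011, 108.2 in MC654 and 130.6 in MC659. Irf7 made up 2.32% of that sum in MC010 and 0.911% in MC011, against 9.62% in MC654 and 15.0% in MC659. Irf2 made up 23.6% and 19.4% in MC010 and MC011 and 9.61% and 9.56% in MC654 and MC659. Its share was higher under the KO label although its own level was not called.

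**Figure D3:**
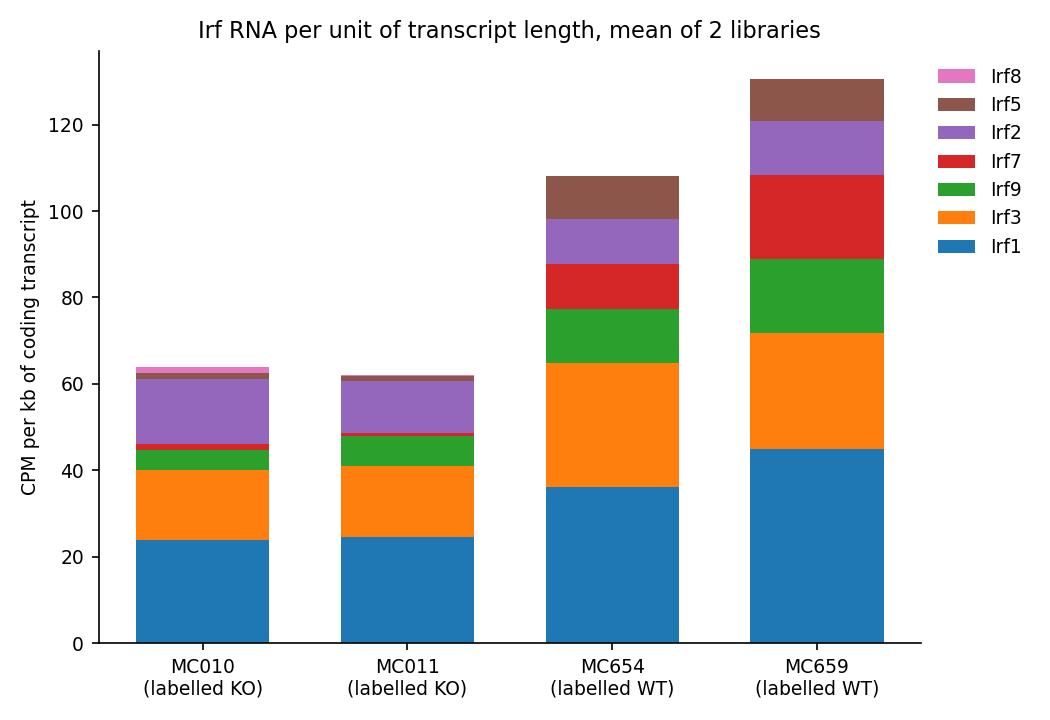
Stacked bars of CPM per kb of coding transcript for the 7 Irf genes, as the mean of 2 libraries in each line. The bars reach 63.9 and 62.0 in MC010 and MC011 and 108.2 and 130.6 in MC654 and MC659, and Irf1 and Irf3 are the thickest layers of every bar.

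Ratios within a library set the activator against its antagonist and the induced factor against the constitutive one. The Irf1 to Irf2 ratio of CPM was 1.35 and 1.37 in MC010, 1.74 and 1.75 in MC011, 2.93 and 3.04 in MC654, and 3.13 and 3.02 in MC659. The KO-labelled lines were apart from each other and below the WT-labelled lines, which overlapped. The Irf7 to Irf3 ratio was 0.105 and 0.0973 in MC010, 0.0287 and 0.0465 in MC011, 0.383 and 0.421 in MC654, and 0.773 and 0.8289 in MC659. All 4 lines were apart in this ratio. The mean difference between labels, KO minus WT, was -0.97 for the log2 Irf1 to Irf2 ratio and -3.22 for the log2 Irf7 to Irf3 ratio, both given with no test.

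**Figure D4:**
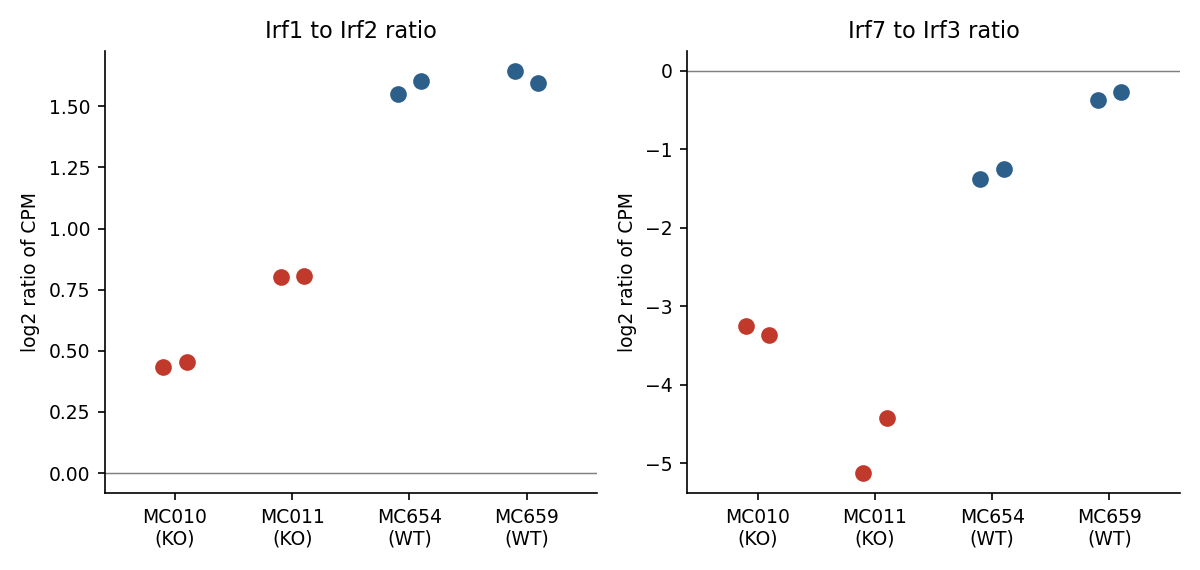
The log2 ratio of CPM (vertical axis) of Irf1 to Irf2 and of Irf7 to Irf3 in each library (points), red for the KO label and blue for WT. MC654 and MC659 lie close together in the first ratio, at means of 1.58 and 1.62, and stand apart in the second, at means of -1.32 and -0.32.

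Among the genes that act before the IRFs, the share called was near that over all genes, where 22.5% were called, 13.7% higher and 8.72% lower. Of 14 sensors, adaptors and kinases that lead to IRF activation, 3 were called lower and none higher in the KO-labelled libraries, with a median log2 fold change of -0.02. The 3 were Ifih1 (-3.15, adjusted p = 0.0165, edgeR) and Ddx58 (-2.13, adjusted p = 0.00339, edgeR), which encode the RNA sensors MDA5 and RIG-I and are themselves induced by interferon, and Sting1 (-0.98, adjusted p = 1.42e-05, edgeR), the adaptor of the DNA sensor cGAS. Of the 14, 4 were called higher and 0 lower in MC010 than in MC011, where 16.3% of all genes were called higher. Among them were Ifih1 (log2 difference 3.11) and Ddx58 (1.38), but not Sting1. Ifih1 was also called lower in MC654 than in MC659 (-0.73), where 3.42% of all genes were called lower. Of the 7 tested genes for interferon receptors and Janus kinases, 1 was called, which is also no more than the 22.5% over all genes. It was Jak2, with a log2 fold change of 1.15 (adjusted p = 0.00409, edgeR), and the median was 0.21. Between MC010 and MC011, 2 of these 7 genes were called, beside 32.6% of all genes. Jak2 was higher in MC010 there (0.82), and the other was lower. Ifnb1 and Ifng, the genes of interferon beta and interferon gamma, had no row and were not analysed here.

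Stat2, the gene of a partner of IRF9, was lower. It had a mean of 19.1 CPM (SD 3.26, n = 4) in the KO-labelled libraries and 48.9 CPM (SD 13.2, n = 4) in the WT-labelled ones, and its log2 fold change was -1.36 (adjusted p = 0.00178, edgeR). All KO-labelled libraries lay below all WT-labelled ones. Of the 10 partner factors tested, 2 were called lower and 1 higher, with a median of 0.07, beside the 22.5% of all genes called. The one called higher, Batf3, a partner of IRF8 in dendritic cells, is named although it is below the level set for named genes. It had a mean of 1.04 CPM in the KO-labelled libraries and 0.233 in the WT-labelled ones. By line its mean was 0.396 CPM in MC010, 1.68 in MC011, 0.185 in MC654 and 0.280 in MC659, and it was called lower in MC010 than in MC011. Spi1, Batf, Batf2, Ikzf1 and Ikzf3, other lymphoid and myeloid partners, had no row.

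The type I interferon target genes, which IRF9 with STAT2 and also IRF3 and IRF7 can activate, were lower as a list. All 20 were called lower in the KO-labelled libraries, where 8.72% of all genes were, with a median log2 fold change of -3.73. The largest changes were those of Oas2 (-8.67) and Oas1a (-7.18), which encode sensors of double-stranded RNA, Ifi44 (-6.18) and the antiviral GTPase gene Mx2 (-5.27). In the KO-labelled libraries Oas2 had only 0 to 0.0874 CPM, Oas1a 0.0311 to 0.165, Ifi44 0.197 to 0.639 and Mx2 0.0127 to 0.149. The size and order of these folds therefore rest on few counts under the KO label. Without MC659, 13 of the 20 were called, all lower, and with counts added up per line edgeR called none, with 19 at an unadjusted p under 0.05. Between lines of a label, 14 were called higher and 1 lower in MC010 than in MC011, where 16.3% of all genes were called higher. In MC654, 15 were called lower than in MC659 and none higher, where 3.42% of all genes were called lower. Irf7 had the same order of lines as the majority of the list in both comparisons.

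Of the 14 tested target genes of IRF1 and interferon gamma, 7 were called lower and 1 higher, with a median log2 fold change of -0.999. Of all genes, 8.72% were called lower and 13.7% higher by label. The chemokine gene Cxcl10 had -2.35, the guanylate-binding protein genes Gbp3 and Gbp7 had -2.32 and -2.13, and the gene called higher was Socs1 (0.90), an inhibitor of Janus kinases. Between lines of a label, 10 of the 14 were called higher and none lower in MC010 than in MC011, where 16.3% of all genes were called higher. In MC654, 7 were called lower and none higher than in MC659, where 3.42% of all genes were called lower. Of 6 listed genes tied to IRF8, 1 was called, beside the 22.5% of all genes called. It was Trp53, with a log2 fold change of 3.06. The study of these same lines and data had already tied Trp53 to IRF8, so its call here is not a separate result.

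**Figure D5:**
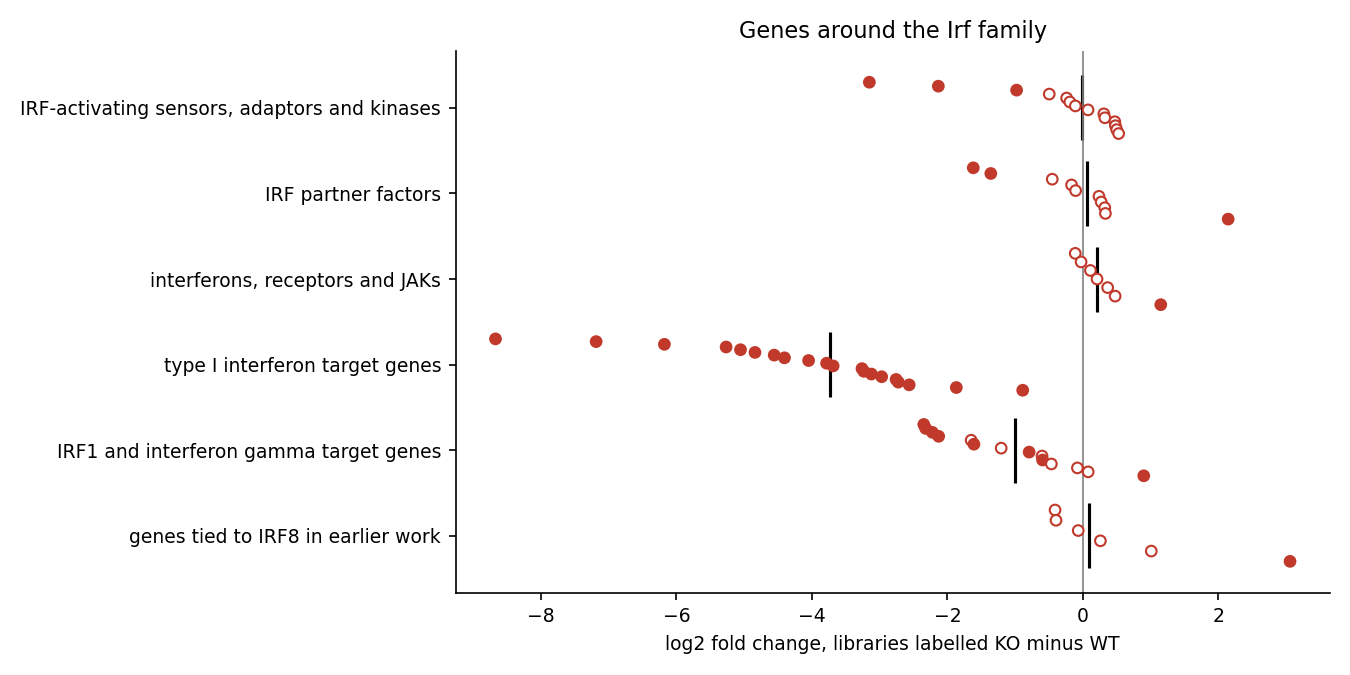
The log2 fold change of KO-labelled against WT-labelled libraries (horizontal axis) for each tested gene of 6 lists around the IRFs, with filled circles for genes called, open circles for genes not called and a black bar at the median of a list. The 20 type I interferon targets all lie below 0 with a median of -3.73, while the sensors, adaptors and kinases have a median of -0.02.

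IRFs are abundant in blood cells, so markers of other cell types are given beside these results. Of 13 hematopoietic markers, 7 had no row, among them Itgam, Adgre1, Lyz2 and Cd3e, and Ptprc reached at most 18 counts. Their summed level was 5.82 to 7.41 CPM in the KO-labelled libraries and 10.1 to 11.6 CPM in the WT-labelled ones, and most of that sum was Cd68, with 5.25 to 6.74 CPM and 8.25 to 10.1 CPM. Of the 2 markers tested by label, Csf1r was called lower in the KO-labelled libraries. Cd68 was lower too (log2 fold change -0.585, adjusted p = 0.00838, edgeR) but just short of the fold threshold, so it was not called. Markers at levels too low to be tested by label went both ways. Under the KO and WT labels, Ptprc had means of 0.0836 and 0.0202 CPM and Cd79a had 0.158 and 0.0492 CPM. Itgax had 0.0136 and 0.175 CPM, and Flt3 had 0.0798 and 0.0782 CPM. Ptprc was called higher in MC010, the line with the most Irf8, where its mean was 0.167 CPM, than in MC011, where both libraries had 0 counts. The part of such cells in the IRF levels was not tested, and fewer cells of a type and less RNA per cell cannot be told apart in bulk RNA. All 8 mesenchymal markers were tested, 3 called higher and 1 lower. Of 4 epithelial markers tested, 1 was called higher, and none of the 2 endothelial markers tested was called. Of all genes, 22.5% were called by label, 13.7% higher and 8.72% lower. Between MC010 and MC011, where Irf7 and Irf8 differed, 7 of the 8 mesenchymal markers were called, 1 higher and 6 lower in MC010. All 4 epithelial markers were called there, 2 higher and 2 lower, and 32.6% of all genes were called between these lines. The keratin gene Krt8 had a mean of 284 CPM in MC010 and 1.29 in MC011, and Krt18 had 264 and 31.4 CPM. Their part in the differences of Irf7 and Irf8 was not tested.

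Across the 8 libraries, the genes whose log2 CPM was most like that of each member are given as a description, since libraries of a line and lines of a label share their levels and 10992 or 10993 genes were compared for each. For Irf7 the highest Pearson r were 0.998 for Igtp, an interferon-inducible GTPase gene, 0.997 for Txndc16 and 0.997 for Ifi35, an interferon-induced gene. For Irf9 they were those of Nsmce1, Slc50a1 and Htra1 (0.998, 0.997 and 0.997), and for Irf1 those of Pcdhgc5, Fah and Mndal (0.993, 0.992 and 0.990). For Irf5 they were those of Asph, Tarbp1 and Picalm (0.999, 0.998 and 0.998), and for Irf3 Crim1 and Lig1 had 0.995 and 0.994. For Irf2 they were those of Pml, itself an interferon target, Npr2 and Tceanc2 (0.990, 0.982 and 0.980). For Irf8 they were those of Sprr1a, Runx1, a hematopoietic transcription factor gene, and Cttnbp2nl (0.995, 0.994 and 0.993). The number of genes above an r of 0.95 was lowest for Irf2, with 33, and 281 to 570 for the others.

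Some members share exon bases with neighbours in the annotation. Irf5 shared 411 bases with Tnpo3 on the opposite strand, which had 15225 to 23497 counts and was not called (log2 fold change -0.23). Irf3 shared 88 bases with Bcl2l12 (-0.16, not called) and Irf7 45 bases with Phrf1 (-0.36, not called), both on the opposite strand. Irf9 shared 123 bases with Rnf31 on its own strand, which was called lower (-0.62). Irf1 shared 135 bases with Gm17334 on the opposite strand, which had at most 9 counts. The counting's strand setting is not given in the sources used here, so reads from the shared bases cannot be assigned with certainty.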

How the data were processed

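The authors aligned reads of stranded mRNA libraries to mm10 (GRCm38.p6) with STAR 2.7.3a and counted them per gene with HTSeq 0.11.2, versions per the labels, where the methods text of the paper names others. The deposited table holds raw counts per gene, used here, and a normalised signal, the counts divided by 1 factor per library, which the authors deposited too and which was not used. Columns of the authors' own comparison hold fold changes and p-values and were not used.

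The comparisons used the robust quasi-likelihood test of edgeR 4.0.16 (R 4.3.3) after filterByExpr and TMM scaling. P-values were adjusted by Benjamini and Hochberg over the whole tested table, 15153 genes by label and 16703 genes with 1 group per line. Standard errors come from the fold change and the F statistic. Coordinates and lengths came from GENCODE M21, in which 18736 table genes were found. Log2 CPM had a prior count of 2. The fits were tested on simulated data. For the fit by label, these libraries were drawn independently, with no difference between lines of a label. That simulation therefore cannot show how calls by label hold where such lines differ.

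The members and gene lists were chosen with earlier results of these data known. Named genes were all members, the 4 called genes of each list with the largest change and a mean log2 CPM of at least 1, Stat2, Ifnb1, Ifng, the 3 genes most like each member, and overlapping genes, and some items that this rule names are not reported here and enter counts only. Alternatives were DESeq2 1.42.0, no filter, scaling by the upper quartile, counts added up within each line, voom in limma 3.58.1 with lines as random blocks, the replicate number as a block, each library and each line left out, and no fold threshold. Libraries of a line differed by more than sampling noise.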

Additional observations from a re-analysis of the deposited data

Results flagged for a closer look

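Irf7 and Irf8 differed between lines of the same label, so that their difference from the other label was not the same in both lines. Irf7 was higher in MC010 than in MC011 by 1.43 on the log2 scale and lower in MC654 than in MC659, with a log2 difference of -0.92. Irf8 was higher in MC010 than in MC011 by 4.18 on the log2 scale. Each was tested as the difference itself in edgeR's fit with 1 group per line. Between MC010 and MC011, 28.6% of the members were called, no more than the 32.6% of all genes called there. Between MC654 and MC659, 4.58% of all genes were called.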

How the results depend on the processing

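Over 19 alternatives to the fit by label, no member changed direction. The count of called members was 6 or within 1.5 times of it in all but one. With the counts of each line summed, 2 lines against 2, edgeR called 0 members and 0 type I interferon target genes. In that fit 6 members and 19 of the 20 targets had an unadjusted p under 0.05, no gene of 16927 was called, and 3658 genes had an unadjusted p under 0.05. The smallest adjusted p of a member was 0.0524 (Irf5). Limma-voom with the line as a block, at a correlation of 0.83 within lines, kept the call of each member but Irf8.

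The replicate number as a block changed no call of a member by label and left 6 members called, and libraries with the same number did not deviate together, with correlations of -0.03 to 0.06. Leaving out each library in turn left 6 members and 19 or 20 targets called by label, 2 or 3 members between MC010 and MC011 (3 without the first library of either line), and 1 between MC654 and MC659. Without the line MC659, 13 type I interferon target genes were called. With no fold threshold, 4 members were called between MC010 and MC011 and 4 between MC654 and MC659, in place of 2 and 1. Depth limits Irf8, at 0 to 2 counts in the WT-labelled libraries.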
